A study of Mus musculus with 28 samples.

Results

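Cyclic AMP (cAMP) is made from ATP by adenylyl cyclases, broken down by phosphodiesterases, and read by protein kinase A (PKA), an enzyme of paired regulatory and catalytic subunits that A-kinase anchoring proteins (AKAPs) tether to particular places in the cell. In the collecting duct of the kidney, vasopressin acting on its receptor raises cAMP, and PKA then moves water channels to the cell surface. Cyclase and phosphodiesterase isoforms differ in how calcium, G proteins and PKA itself regulate them, so the isoforms a cell expresses bear on how its cAMP signal is shaped.

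The genes described here are the 55 whose symbols name an adenylyl cyclase (10 Adcy genes), a phosphodiesterase (23 Pde genes), a PKA regulatory subunit (4 Prkar genes), a PKA catalytic subunit (2 Prkac genes) or an AKAP (16 Akap genes), among 45706 genes in the expression tables. The symbols alone decide which genes belong. Messenger RNA levels come from 28 RNA-seq libraries of the mouse inner medullary collecting duct cell line mIMCD-3, with 4 libraries for each of 7 groups: the polyclonal wild-type (WT) line, the monoclonal WT5 line grown from a single sorted polyclonal cell, and subclones 1 to 5, each grown from a single sorted WT5 cell. All groups were unedited, received no treatment named in the labels and were harvested 4 days after full confluency. The study asked how far clones of one wild-type line differ from each other and from the line as a whole, and WT5 and each subclone stand for 1 clone only.

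Values are TPM, which scale each library to the same sum and correct for transcript length, so levels can be compared between genes. Reads of polyclonal libraries were single-end and 50 bp long, those of monoclonal libraries paired and 150 bp long and made at another time, so line and sequencing cannot be told apart in WT5 against polyclonal. In such bulk samples, fewer cells of a type and less RNA per cell cannot be told apart either. The subclones sit in a separate table from WT5, and a difference from WT5 that all 5 subclones share cannot be told apart from a difference between tables. The study's methods call the 4 libraries of a group biological replicates and a legend calls them technical, so the p-values measure only the spread between these libraries. Among the collecting duct and renal epithelial markers, 10 of 15 had a mean of at least 1 TPM, Epcam among them (427 to 619 TPM). Avpr2 and Slc14a2 were among the 10 through some groups only. Avpr2 averaged 10.6 TPM in polyclonal cells and at most 0.2 TPM elsewhere. Slc14a2 averaged 4.99 and 2.4 TPM in subclones 4 and 5 and at most 0.292 TPM elsewhere. Gata3, Aqp3, Aqp4 and Scnn1a were under 1 TPM on average, with Gata3 at 4.08 TPM in polyclonal cells and 0.04 in WT5. Aqp2, the vasopressin-regulated water channel, was at 0 in all 28 libraries. Summed markers reached at most 0.72 TPM for intercalated cells (2 of 5 at 0 throughout), 0.29 TPM for endothelium (1 of 4 at 0) and 2.12 TPM for fibroblasts (none of 6 at 0 throughout). Of the leukocyte markers, Csf1r (10.1 to 54.1 TPM) and Cd68 (1.45 to 4.52 TPM) were present, Ptprc did not exceed 0.17 TPM, and Adgre1 and Cd3e were at 0; their sum was 12.2 to 13.8 TPM in polyclonal cells, 38.7 to 44.9 in WT5 and 28.4 to 55.6 in the subclones. The summed proximal tubule markers, mostly Lrp2, were 1.45 to 1.62 TPM in polyclonal cells, 3.57 to 4.68 in WT5 and 4.53 to 10.3 in the subclones. The part of these markers in the results was not tested. Subclone 3 replicate 2 and subclone 5 replicate 1 stood apart from the other libraries of their groups: they held the lowest TPM of their group for 28 and 29 of the 33 genes tested below, and for 59.5% and 64.6% of all genes.

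Of the 55 genes, 33 were above 0 TPM in all 28 libraries and were tested. These were 6 cyclases, 9 phosphodiesterases, all 6 PKA subunits and 12 AKAPs, and 27 of them had a mean of at least 1 TPM. The other 22 reached at most 0.22 TPM in any library. Pde1b, Pde1c, Pde3a and Pde6c were at 0 throughout, while the other 18 were above 0 in 1 to 22 libraries; they include Adcy2, Adcy4, Adcy8 and Adcy10 among the cyclases, Pde1a, Pde3b, Pde6a, Pde6b, Pde6g, Pde6h, Pde7b, Pde9a, Pde10a and Pde11a among the phosphodiesterases, and Akap3, Akap4, Akap6 and Akap14. When genes above 0 in any library of a fit were let in with a pseudocount of 0.1, 10 of the 22 entered WT5 against polyclonal and 17 the comparison among subclones, and the log2 rule called none of them. The mRNA of the calcium-activated PDE1 family and of PDE3, which cGMP inhibits, was thus at 0 or at most 0.22 TPM in every library.

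The promoter is where the transcription factor CREB, which PKA activates, meets cAMP-regulated genes, at the cAMP response element (CRE), TGACGTCA. Promoters of 300 bases (250 before to 50 after the start) were read from RefSeq on GRCm38.p6 for 44 of the 55 genes, 82 promoters in all, and searched on both strands. The full element was in 2 of them, both of Prkar1a, or 2.44% against 1.79% of all 32851 promoters. The short form TGACG or its reverse complement CGTCA, which the full element also holds, was in 17, or 20.7% against 20.8% of all promoters. The stretch with the full element is shown for Prkar1a (chr11:109650884-109650923, plus strand), with the element in capitals.
Prkar1a: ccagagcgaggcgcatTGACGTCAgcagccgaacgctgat
For the 3 genes with the widest differences between WT5 and polyclonal cells, and for Adcy7, the most variable cyclase among the subclones, the 100 bases before the most upstream RefSeq start follow, all on the plus strand (chr11:7063333-7063432, chr7:81213165-81213264, chr8:70723964-70724063 and chr8:88282892-88282991). Capitals mark a short form.
Adcy1: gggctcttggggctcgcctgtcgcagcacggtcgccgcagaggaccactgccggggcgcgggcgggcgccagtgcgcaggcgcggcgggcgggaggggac
Pde8a: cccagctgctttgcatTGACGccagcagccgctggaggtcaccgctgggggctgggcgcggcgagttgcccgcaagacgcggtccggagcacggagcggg
Pde4c: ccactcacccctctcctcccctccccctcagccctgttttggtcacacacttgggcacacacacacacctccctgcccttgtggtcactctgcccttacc
Adcy7: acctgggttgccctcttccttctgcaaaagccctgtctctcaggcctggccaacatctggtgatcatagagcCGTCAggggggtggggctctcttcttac
The windows of Pde8a and Adcy7 hold 1 short form each, and those of Adcy1 and Pde4c hold none. In GENCODE release M21, Pde4c and Adcy7 start upstream of these windows, at chr8:70723720 and chr8:88272403. For these genes the windows thus do not cover the most upstream annotated start.

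On GRCm38 (GENCODE release M21), the genes the results turn on lie apart from each other: Adcy1 (chr11:7063489-7178506), Pde8a (chr7:81213596-81334533), Pde4c (chr8:70723720-70751186), Adcy7 (chr8:88272403-88329962), Akap12 (chr10:4266380-4359470), Akap17b (chrX:36608314-36645395) and Prkar2b (chr12:31958476-32061296). Values are per gene and cover all its annotated transcripts.

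Between WT5 and the polyclonal line, several cyclase, phosphodiesterase and AKAP genes differed in level. Adcy1 and Pde8a were under 0.5 TPM in every polyclonal library and at 9.02 TPM or more in every WT5 library, Pde4c rose from a mean of 0.918 to 12.8 TPM, and Adcy9, Pde4a, Akap12 and Akap2 were also higher in WT5. The regulatory subunit Prkar2b was the only PKA subunit past the thresholds, and it was lower in WT5. Differences were taken on log2(TPM) by limma with Benjamini-Hochberg adjustment over the 13723 genes above 0 in these 8 libraries, and called by either of a pair of rules. The z-score rule scales log2(TPM) within each library to z-scores and asks for an adjusted p below 0.01 and a difference above 1, which here is 8.56-fold on average. The log2 rule centres log2(TPM) on the median of each library and asks for an adjusted p below 0.01 and a log2 difference above 1.

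By the z-score rule, 3 of the 33 genes (9.09%) were called, all higher in WT5, against 5.43% of all genes tested. By the log2 rule, 12 (36.4%) were called against 23.2% of all genes: 10 were higher in WT5, where 11.3% of all genes were, and 2 were lower, where 12% were. Without the centring, 12 were again called, 11 higher and 1 lower; all genes then split into 2327 higher and 1174 lower, against 1547 and 1643 with it, as the median of all genes shifted by 0.24. On TPM without centring, the libraries of the groups did not overlap for 24 of the 33 genes, 19 higher and 5 lower in WT5. Of all 13723 genes, 9924 (72.3%) did not overlap, and 6652 of these were higher in WT5. The median size of the log2 difference was 0.72 for the 33 genes and 0.52 for all genes, and the median difference was 0.30 and -0.05. All differences below are on the centred log2 scale unless a z-score is named, and the unmarked errors of differences are standard errors.

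**Figure D1:**
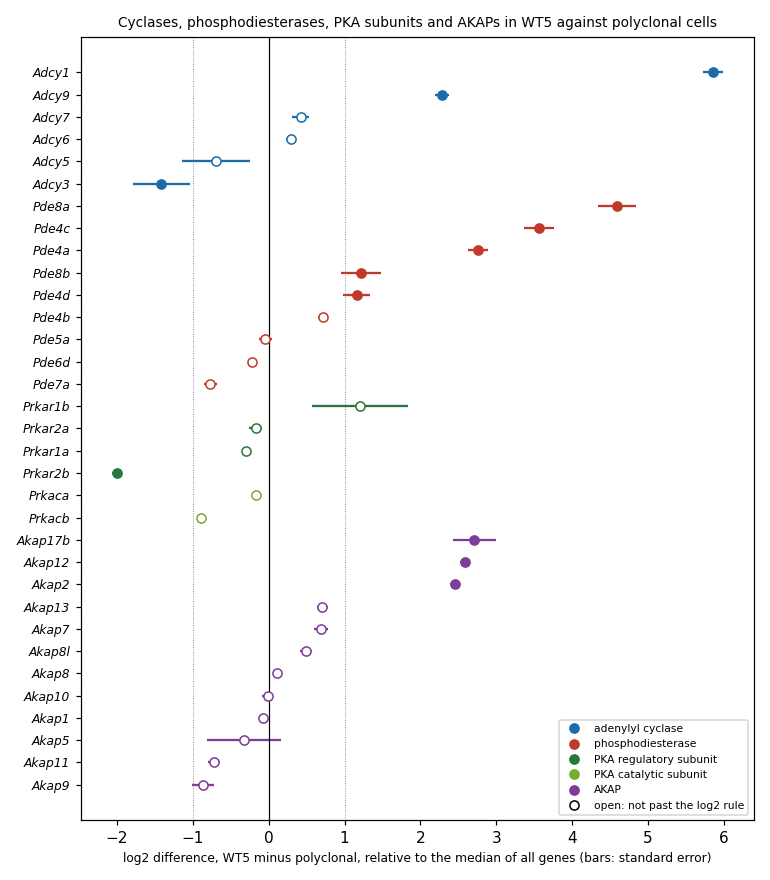
Log2 difference in expression between WT5 and polyclonal cells (x axis, relative to the median of all genes, bars are standard errors) for the 33 genes tested, grouped and coloured by class; filled points pass the log2 rule. Adcy1 stands farthest to the right at 5.86 and Prkar2b farthest to the left at -2.001, and 5 of 9 phosphodiesterases are filled, all to the right. Of all genes tested, 11.3% were called higher in WT5.

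Among the cyclases, Adcy6, a calcium-inhibited isoform, had the highest level in every group. It was at 26.2, 27.2, 30.7 and 32.1 TPM in polyclonal cells and 42.6, 43.1, 44.2 and 44.4 TPM in WT5, with no overlap, but the difference was only 0.30 ± 0.07 (adjusted p = 4.02e-03) and under the size both rules ask for. Adcy1, which calcium and calmodulin stimulate and which is best known from neurons, was near the lower end of the scale in polyclonal cells, at 0.11, 0.17, 0.13 and 0.13 TPM. In WT5 it stood at 9.02, 9.04, 10.4 and 9.46 TPM. Every WT5 library was thus far above every polyclonal one, by 5.86 ± 0.13 (adjusted p = 2.16e-08) or 58.0-fold, and the z-score difference was 1.90. Adcy9, an isoform that forskolin activates poorly, rose from 0.98, 1.04, 1.04 and 0.80 TPM to 5.75, 6.08, 5.45 and 5.66 TPM, again without overlap and by 2.29 ± 0.09 (adjusted p = 3.41e-07). Adcy3 was low throughout, at 0.41, 0.40, 0.37 and 0.54 TPM in polyclonal cells and 0.33, 0.26, 0.10 and 0.17 TPM in WT5, without overlap. Its difference of -1.41 ± 0.37 (adjusted p = 8.97e-03) passed the log2 rule with all 8 libraries and in only 2 of the 8 fits that left a library out: without WT5 replicate 2 or 4, or any one of the polyclonal libraries, the adjusted p was 0.0128 to 0.0271. Adcy7, which protein kinase C can stimulate, differed by 0.43 ± 0.11 (adjusted p = 9.59e-03) and Adcy5, at 0.12 TPM or less in any library, by -0.69 ± 0.45 (adjusted p = 0.192); neither was called. Adcy6 made up 92.1 to 93.9% of the summed cyclase TPM in polyclonal cells and 72.3 to 73.2% in WT5, while the share of Adcy1 was 0.380 to 0.577% and 15.2 to 17.0%.

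Phosphodiesterases of the cAMP-specific PDE4 and PDE8 families were higher in WT5. Of their 6 measured members, 5 were called higher by the log2 rule, where 11.3% of all genes were. The other phosphodiesterases tested, Pde5a, Pde6d and Pde7a, were not called. Pde8a, an enzyme with high affinity for cAMP, was at 0.23, 0.48, 0.48 and 0.27 TPM in polyclonal cells and at 10.3, 10.1, 11.2 and 9.17 TPM in WT5. The groups were far apart, with a difference of 4.59 ± 0.25 (adjusted p = 1.77e-06), 24.1-fold, and a z-score difference of 1.496. Its relative Pde8b was much lower, at 0.29, 0.46, 0.37 and 0.22 TPM against 0.79, 0.69, 1.06 and 1.23 TPM, without overlap. The difference of 1.22 ± 0.27 (adjusted p = 3.88e-03) was not past the threshold without WT5 replicate 3 or 4 or polyclonal replicate 1, where the adjusted p was 0.0126, 0.0108 and 0.0129. Pde4c, a PDE4 isoform known at the primary cilium of kidney cells, rose from 0.73, 0.74, 1.40 and 0.80 TPM to 11.8, 12.9, 12.4 and 13.9 TPM. The difference was 3.56 ± 0.20 (adjusted p = 1.81e-06), 11.8-fold, with a z-score difference of 1.17. Pde4a moved from 0.35, 0.50, 0.39 and 0.35 TPM to 3.19, 3.45, 3.62 and 2.86 TPM, by 2.77 ± 0.13 (adjusted p = 8.32e-07), and Pde4d from 1.53, 1.15, 2.29 and 1.47 TPM to 4.09, 4.38, 4.52 and 4.09 TPM, by 1.16 ± 0.18 (adjusted p = 5.08e-04); the libraries overlapped for neither. Pde4d and Pde8b were not called under the unequal-variance test or with a pseudocount of 1. Pde4b was the PDE4 gene with the highest level in both groups and differed by 0.72 ± 0.07 (adjusted p = 3.74e-05), under the size asked for.

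The phosphodiesterases with the highest levels did not pass either rule. Pde6d, a prenyl-binding partner of the photoreceptor enzyme with no catalytic activity of its own, was at 95.9, 98.3, 99.9 and 95.6 TPM in polyclonal cells and 106, 101, 98.4 and 104 TPM in WT5. The ranges overlapped, and the difference was -0.22 ± 0.05 (adjusted p = 3.44e-03), or 0.07 without centring. Pde7a, a cAMP-specific enzyme, and Pde5a, which breaks down cGMP, lie outside the rule for named genes and were chosen after their values were seen. Pde7a was at 106, 89.7, 114 and 106 TPM against 63.4, 77.7, 80.9 and 77.3 TPM, all WT5 libraries below all polyclonal ones, by -0.77 ± 0.09 (adjusted p = 8.92e-05). Pde5a differed by -0.04 ± 0.09 (adjusted p = 0.656). Leaving out Pde6d, Pde7a held 80.4 to 81.7% of the phosphodiesterase TPM in polyclonal cells and 48.9 to 53.8% in WT5, and the PDE4 genes together 12.2 to 14.2% and 32.9 to 37.0%. Within the PDE4 genes the sum was 15.3 to 18.7 TPM in polyclonal cells and 48.0 to 49.5 in WT5.

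**Figure D2:**
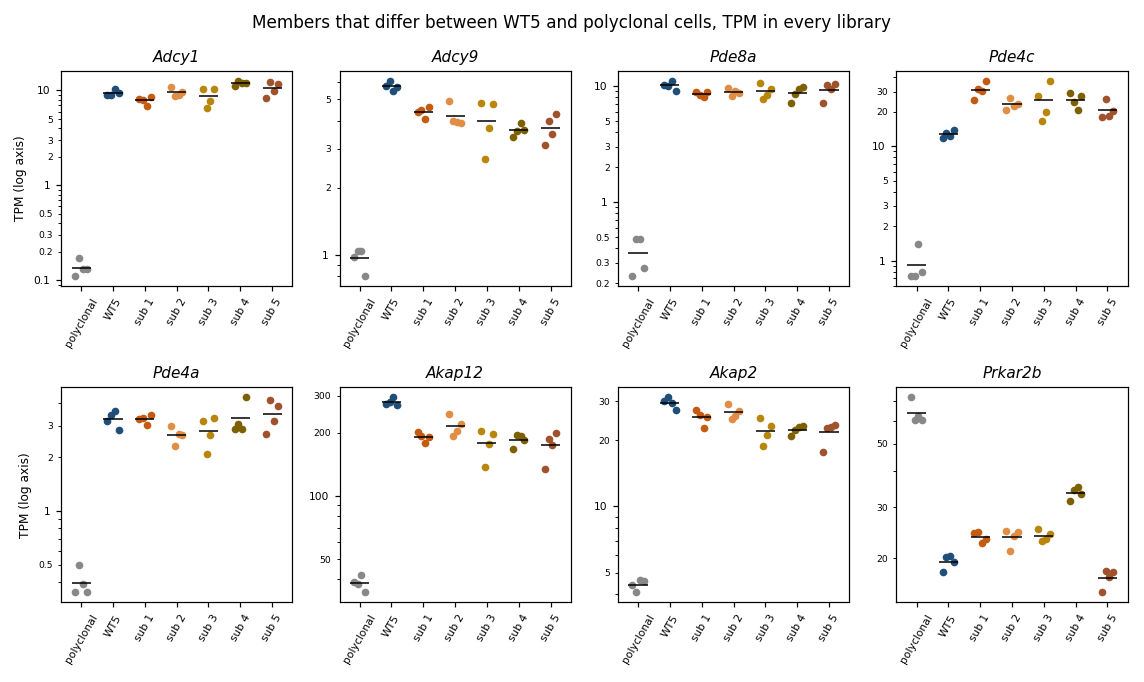
TPM on log axes in each of the 28 libraries (points) of the 7 groups for 8 genes called between WT5 and polyclonal cells; horizontal bars are the means of 4 libraries. In 7 panels the polyclonal points lie below all others, and for Prkar2b they lie above.

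Of the 6 PKA subunits, 1 passed the log2 rule, where 23.2% of all genes did. Prkar1a, the type I regulatory subunit with the highest level, was at 266, 260.4, 266 and 267 TPM in polyclonal cells and 254, 270.1, 269.6 and 263 TPM in WT5. These ranges overlapped on the TPM scale, and the centred difference was -0.29 ± 0.03 (adjusted p = 7.30e-05). Prkar2b, a type II subunit, was at 72.6, 60.2, 62.1 and 60.5 TPM in polyclonal cells and 17.97, 20.2, 20.3 and 19.4 TPM in WT5. Each WT5 library was far below each polyclonal one, and Prkar2b fell in WT5 with a difference of -2.001 ± 0.07 (adjusted p = 1.69e-07), 4.00-fold. Prkar2a, the other type II subunit, was at 37.8, 33.2, 37.4 and 38.2 TPM and 38.8, 34.8, 44.5 and 41.4 TPM, overlapping, with a difference of -0.17 ± 0.08 (adjusted p = 0.0882), or 0.12 without centring. Prkar1b was low and uneven, at 0.39, 0.81, 0.12 and 0.63 TPM against 1.37, 0.78, 1.88 and 0.75 TPM, with a small overlap, and its difference of 1.21 ± 0.63 (adjusted p = 0.118) did not pass. Its exons overlap those of Gm15672 on the same strand, so reads may have been split between them.

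The catalytic subunits differed from each other. Prkaca was at 124, 131, 143 and 122 TPM in polyclonal cells and 135, 141, 147 and 142 TPM in WT5, with overlap, and its difference was -0.17 ± 0.05 (adjusted p = 0.0138), or 0.12 without centring. Prkacb was at 105, 92.8, 98.8 and 91.9 TPM and 61.6, 64.4, 66.6 and 62.8 TPM, without overlap and lower in WT5 by -0.89 ± 0.05 (adjusted p = 1.61e-06), past the adjusted p but under the size asked for. The directions of Prkar1a, Prkar2a, Prkaca, Prkacb and Pde6d depend on the genes let in, which set the median that each library is centred on. With genes above 0 in any library let in and a pseudocount of 0.1, their centred differences were 0.63, 0.75, 0.75, 0.03 and 0.70. More genes were above 0 in polyclonal libraries (18681 to 19272) than in WT5 libraries (16318 to 16536). The part of this gap in the shift was not tested. Type II subunits made up 26.3 to 29.3% of the summed regulatory subunit TPM in polyclonal cells and 16.9 to 19.3% in WT5. The ratio of summed regulatory to summed catalytic TPM was 1.51 to 1.71 and 1.58 to 1.59, so WT5 fell inside the polyclonal range.

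**Figure D3:**
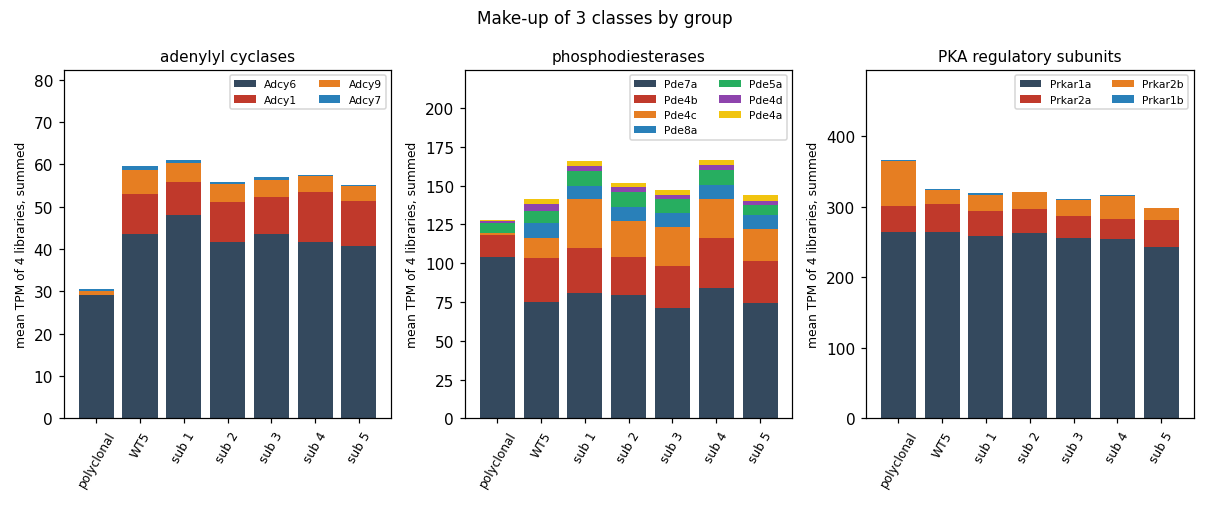
Mean TPM of 4 libraries, stacked by gene, for cyclases, phosphodiesterases without Pde6d and PKA regulatory subunits in the 7 groups; genes at very low levels are left out. The polyclonal bar holds nearly only Adcy6 among the cyclases, where Adcy6 is 92.1 to 93.9% of the sum, and mostly Pde7a among the phosphodiesterases.

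Among the AKAPs, 3 of 12 passed the log2 rule, all higher in WT5, a share close to the 23.2% of all genes, and none the z-score rule. Akap12 (gravin), which binds PKA, protein kinase C and beta-adrenergic receptors, was at 38.98, 38.1, 42.05 and 34.6 TPM in polyclonal cells and 274, 281, 297 and 272 TPM in WT5. The difference was 2.58 ± 0.06 (adjusted p = 1.82e-08), 5.99-fold, and made Akap12 54.4 to 55.7% of all AKAP TPM in WT5 against 17.3 to 19.3% in polyclonal cells. Akap2 was at 4.39, 4.07, 4.64 and 4.59 TPM and 30.1, 31.5, 29.4 and 27.5 TPM, without overlap and 2.45 ± 0.06 (adjusted p = 2.60e-08). It shares 94.1% of its 50-base stretches with Pakap, an overlapping gene on the same strand, so the split of reads between them is uncertain; summed with Pakap, which did not exceed 2.09 TPM, the level was 4.07 to 4.83 TPM in polyclonal cells and 28.5 to 32.2 in WT5. Akap17b was low at 0.09, 0.05, 0.13 and 0.07 TPM against 0.52, 0.68, 0.86 and 0.55 TPM, again without overlap, 2.71 ± 0.28 (adjusted p = 6.23e-05), and was not called with a pseudocount of 1. The other 9 AKAPs ranged from -0.86 (Akap9, the Golgi and centrosome scaffold, adjusted p = 9.27e-04) to 0.71 (Akap13, adjusted p = 4.25e-05). The mitochondrial scaffold Akap1, at 29.4 to 33.1 TPM in polyclonal cells and 35.4 to 37.8 in WT5, differed by -0.07 and did not pass the adjusted p (0.188).

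Each subclone was compared with WT5. By the z-score rule, 0 of the 33 were called in any subclone by limma, none had an unadjusted p under 0.05 with the size asked for, and the unequal-variance test also called 0; of all 13860 genes tested, 0.152%, 0.144%, 0.173%, 0.202% and 0.173% were called in subclones 1 to 5. By the log2 rule, 2, 0, 2, 3 and 2 of the 33 were called against 3.12%, 2.68%, 3.97%, 5.32% and 3.67% of all genes; in subclone 2, where 0 were called, 1 had an unadjusted p under 0.05 with the size asked for and the unequal-variance test called 0. With the adjusted p alone, on the z-score scale, 10, 11, 7, 14 and 7 passed, against 26.3%, 26%, 19.5%, 37.3% and 21.9% of all genes. All 5 comparisons use the same WT5 libraries.

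Pde4c was the gene called most often, in subclones 1, 3 and 4. The WT5 libraries lay at 11.8 to 13.9 TPM and the subclone libraries at 25.1, 31.8, 30.5 and 37.4 TPM (subclone 1), 20.7, 26.2, 22.5 and 23.6 TPM (subclone 2), 27.2, 16.5, 19.8 and 37.1 TPM (subclone 3), 29.2, 24.2, 20.9 and 27.5 TPM (subclone 4) and 17.8, 26.1, 18.4 and 20.3 TPM (subclone 5). All 20 subclone libraries were above all WT5 libraries. The differences from WT5 were 1.32 ± 0.11 (adjusted p = 1.94e-04), 0.92 ± 0.10 (adjusted p = 5.19e-04), 1.01 ± 0.18 (adjusted p = 5.01e-03), 1.08 ± 0.12 (adjusted p = 2.24e-04) and 0.79 ± 0.10 (adjusted p = 1.09e-03) in subclones 1 to 5, and as they are shared by all subclones they cannot be told apart from a difference between tables. In subclone 3 the call was lost without any one of the WT5 libraries (adjusted p 0.0128 to 0.0171), without subclone 3 replicate 1 (adjusted p = 0.0159) and, with a difference of 0.84, without replicate 4. It held without replicate 2, the library that stood apart, at 1.13 (adjusted p = 3.78e-03). In subclone 4 it was lost without replicate 1, at 0.99, by size alone. On TPM without centring, 15.6% of all 13860 genes tested lay beyond WT5 in all 20 subclone libraries, 469 above and 1698 below. Among the 33 genes, Pde4c was the only one above in all 20, and Adcy9, Akap12, Pde4d, Pde6d and Prkaca lay below in all 20. Of these 6 genes, Pde4c and Akap12 passed the adjusted p in every subclone, Akap12 with differences of -0.60 to -0.33.

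**Figure D4:**
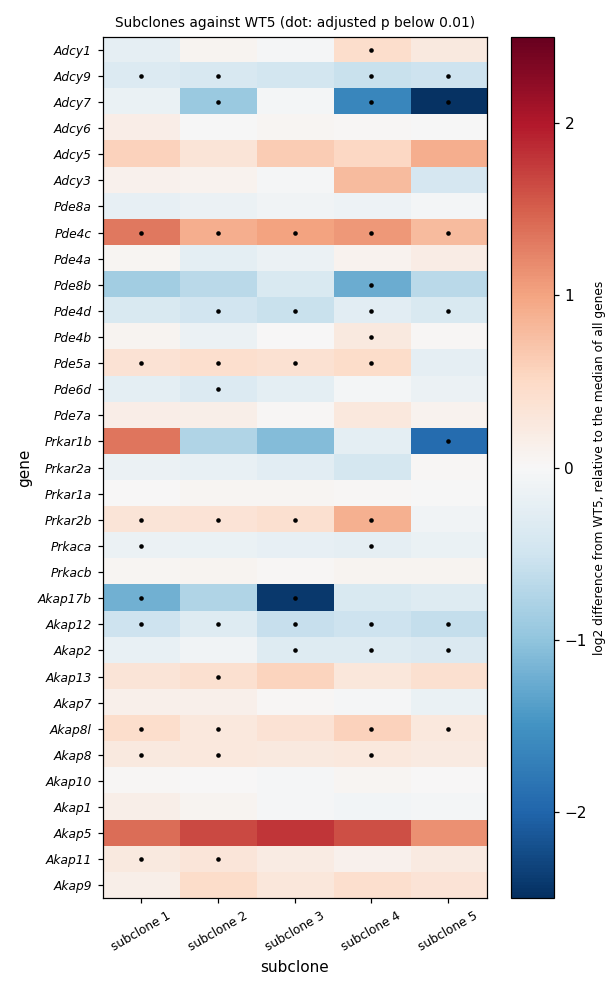
Log2 difference of each subclone from WT5, relative to the median of all genes (colour; red higher and blue lower in the subclone), for the 33 genes tested; dots mark an adjusted p below 0.01 without a requirement on size. Pde4c and Akap12 carry a dot in all 5 columns, and Adcy7 is deepest blue in subclone 5, at -2.48.

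The other calls were each made in 1 or 2 subclones. Adcy7 was lower in subclone 4, by -1.63 ± 0.06 (adjusted p = 4.59e-06), and in subclone 5, by -2.48 ± 0.13 (adjusted p = 4.83e-05). In subclone 5 it stayed past the rule without replicate 1, the library that stood apart, at -2.46 (adjusted p = 2.53e-04), and in subclone 2 its difference of -0.93 reached -1.03 (adjusted p = 3.55e-04) only without replicate 2. Akap17b was lower in subclone 1, by -1.20 ± 0.15 (adjusted p = 8.31e-04), and in subclone 3, by -2.42 ± 0.32 (adjusted p = 1.36e-03), where it was -2.09 (adjusted p = 3.92e-04) without replicate 2. Pde8b was lower in subclone 4, by -1.25 ± 0.22 (adjusted p = 2.42e-03). Prkar1b was lower in subclone 5, by -1.92 ± 0.35 (adjusted p = 4.25e-03), with replicate 1 left out at -1.73 (adjusted p = 9.43e-03), but not without WT5 replicate 1 (adjusted p = 0.0146) or subclone 5 replicate 2 (adjusted p = 0.0131). Prkar1a differed from WT5 by -0.02 to 0.05 and Prkacb by 0.02 to 0.08, with no adjusted p below 0.0913.

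How far the subclones differed among themselves was tested within their own table by limma's moderated F-test over the 14031 genes above 0 in all 20 libraries, with the size taken as the highest minus the lowest subclone mean. By the z-score rule 0 of the 33 were called against 0.613% of all genes; 1, Prkar1b, passed at an unadjusted p under 0.05, and the unequal-variance test called 0. By the log2 rule 3 (9.09%) were called, Adcy7, Akap17b and Adcy3, against 5.46% of all genes. With the adjusted p alone 9 (27.3%) passed, against 24.6% of all genes. The median size was 0.29 for the 33 genes and 0.29 for all genes.

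Adcy7 had the lowest adjusted p of the 33 genes among the subclones. Its TPM was 0.80, 0.87, 0.61 and 0.71 in subclone 1, 0.42, 0.51, 0.42 and 0.39 in subclone 2, 0.95, 0.60, 0.75 and 0.83 in subclone 3, 0.25, 0.28, 0.26 and 0.25 in subclone 4 and 0.12, 0.13, 0.19 and 0.14 in subclone 5. Subclones 1 and 3 overlapped each other, and subclones 2, 4 and 5 each formed a range of their own below them. The range of means was 2.43 (adjusted p = 9.96e-10), 5.39-fold between subclones 3 and 5, and 2.47 (adjusted p = 3.29e-08) without the pair of libraries that stood apart. Of the 10 pairs of subclones, 5 were called by the log2 rule and 9 passed the adjusted p, the exception being subclones 1 and 3, at 0.12. The levels were all under 1 TPM.

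Akap17b was lowest in subclone 3, at 0.16, 0.05, 0.14 and 0.14 TPM. It was at 0.28, 0.24, 0.27 and 0.30 TPM in subclone 1, 0.40, 0.23, 0.44 and 0.44 TPM in subclone 2, 0.62, 0.45, 0.50 and 0.33 TPM in subclone 4 and 0.25, 0.64, 0.57 and 0.56 TPM in subclone 5. The range of subclone 3 lay below those of all others. The range was 2.09 (adjusted p = 1.59e-04), or 2.01 (adjusted p = 2.56e-05) without the pair of libraries that stood apart, and 3 pairs were called, those of subclone 3 with subclones 2, 4 and 5. Adcy3 was highest in subclone 4, at 0.41, 0.25, 0.29 and 0.34 TPM, and lowest in subclone 5, at 0.11, 0.18, 0.12 and 0.14 TPM. The other subclones lay at 0.14 to 0.29 TPM and overlapped one or both. The range of 1.22 (adjusted p = 2.52e-03) was past the rule without the pair of libraries that stood apart (1.18, adjusted p = 9.35e-03) but not without subclone 4 replicate 1 (1.08, adjusted p = 0.0111) or replicate 4 (1.19, adjusted p = 0.0107).

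**Figure D5:**
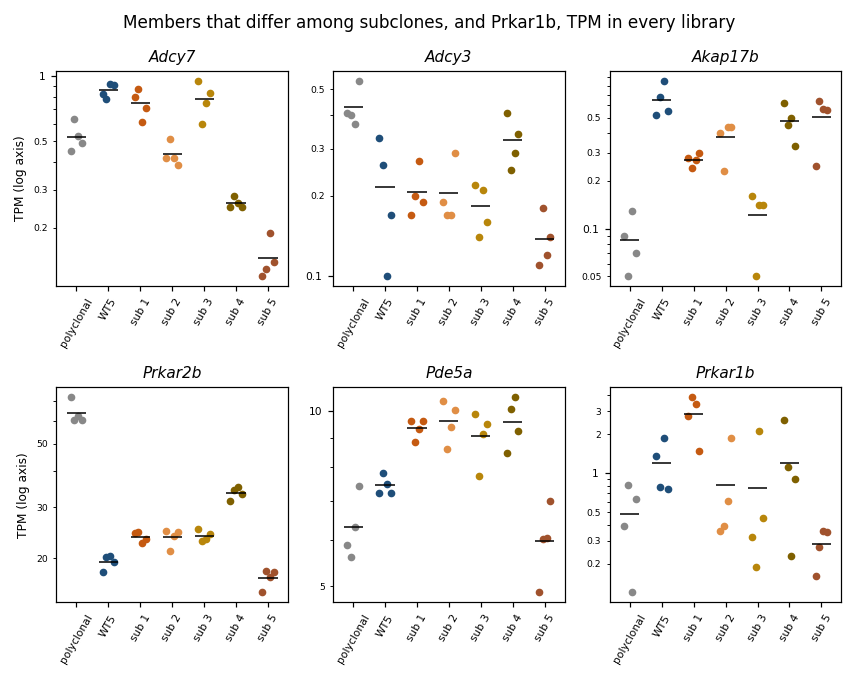
TPM on log axes in each of the 28 libraries (points), with the mean of each group as a bar, for 5 genes past the adjusted p of the F-test among the subclones and for Prkar1b, which did not pass it. Adcy7 is lower in subclones 2, 4 and 5 than in subclones 1 and 3, Prkar2b is highest of the subclones in subclone 4, and the Prkar1b points scatter within groups.

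Of the 6 PKA subunits, none was called among subclones by the F-test under either rule, and only Prkar2b passed its adjusted p. Pairs of subclones, also tested by limma, gave more. The log2 rule called Prkar1b in subclone 5 against 1 (-3.25, adjusted p = 5.29e-03), where it called 1.66% of all genes. Prkar2a passed the adjusted p but not the size in subclone 5 against 4 (0.46, adjusted p = 3.1e-03). Prkar2b was at 31.6, 34.4, 35.2 and 33.5 TPM in subclone 4 and at 15.2, 18.02, 17.2 and 17.8 TPM in subclone 5, with subclones 1 to 3 between 21.3 and 25.2 TPM. The 3 levels did not overlap. The range of 0.97 (adjusted p = 1.12e-09) was just under the size asked for; 7 of 10 pairs passed the adjusted p, all those of subclone 4 or 5 with another, and none among subclones 1 to 3. Prkar2a was at 23.8, 33.6, 28.2 and 25.6 TPM in subclone 4 and at 25.8, 41.8, 42.9 and 43.4 TPM in subclone 5, overlapping, and its range of 0.46 (adjusted p = 0.0145) became 0.58 (adjusted p = 2.33e-04) without subclone 5 replicate 1. Prkar1b had the widest range of all, 3.25 (adjusted p = 0.0212, not past), from 2.75, 3.89, 3.42 and 1.49 TPM in subclone 1 to 0.16, 0.27, 0.36 and 0.35 TPM in subclone 5. Its libraries spread widely within subclone 2 (0.36, 0.39, 0.61 and 1.88 TPM), subclone 3 (0.32, 0.19, 2.12 and 0.45 TPM) and subclone 4 (2.56, 1.11, 0.23 and 0.91 TPM). It passed when subclone 3 replicate 3 (adjusted p = 4.01e-03) or subclone 4 replicate 3 (adjusted p = 7.22e-03) was left out. Prkar1a, Prkaca and Prkacb had ranges of 0.07, 0.07 and 0.05, with adjusted p of 0.840, 0.662 and 0.898.

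Smaller differences among subclones passed the adjusted p in Adcy1 (0.66, highest in subclone 4, adjusted p = 1.30e-04), Pde5a (0.67, subclone 5 the lowest, adjusted p = 6.36e-07), Pde4b (0.40, adjusted p = 4.09e-04), Akap2 (0.25, adjusted p = 1.96e-03) and Akap1 (0.22, adjusted p = 2.27e-03). Pde5a lay at 4.88 to 7.01 TPM in subclone 5 and at 7.74 to 10.6 in the others, without overlap. Several isoforms called higher in WT5 than in polyclonal cells were also high in the subclones, which were grown from WT5 cells and so are not independent of it. Over the 20 subclone libraries Adcy1 was at 6.48 to 12.7 TPM, Pde8a at 7.11 to 10.7, Pde4a at 2.08 to 4.36 and Akap12 at 135 to 246, all above every polyclonal library. Not all called genes stayed high. The libraries of subclone 3 overlapped the polyclonal ones for Akap17b, and Pde8b differed from WT5 by -1.25 in subclone 4. How many of all genes stayed above the polyclonal libraries was not counted. Pde8a, Pde4a, Pde4c, Adcy9 and Akap12 did not pass the adjusted p among subclones.

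Other genes of the cAMP pathway were counted from a list of 58 genes chosen by role. Of 42 tested in WT5 against polyclonal, 2 were called by the z-score rule and 15 by the log2 rule, 6 higher and 9 lower in WT5, where 5.43% of all genes were called by the z-score rule and 23.2% by the log2 rule (11.3% higher and 12% lower). Avpr2, the vasopressin receptor that stimulates cyclases through Gs, was lower in WT5, at 9.70 to 10.97 TPM in polyclonal cells and 0.01 to 0.17 TPM in WT5, by -8.56 ± 0.80 (adjusted p = 3.17e-05). Gnai1, a G protein subunit that inhibits cyclases, was higher, at 0.02 to 0.14 TPM in polyclonal cells and 10.2 to 11.8 TPM in WT5, by 7.20 ± 0.57 (adjusted p = 1.25e-05). The related Gnai2 and Gnai3 had much higher levels in both groups and were not called. Gnai2 was at 299 to 318 TPM in polyclonal cells and 553 to 596 TPM in WT5 (0.59). Gnai3 was at 225 to 264 TPM and 178 to 187 TPM (-0.73). The adenosine receptors Adora2b (2.69) and Adora2a (2.24), the cAMP exporter Abcc4 (2.21) and the anchoring intermediate filament Synm (1.95) were also higher. Their levels in polyclonal cells and WT5 were unlike. Abcc4 was at 6.42 to 7.90 and 37.5 to 43.8 TPM and Adora2b at 0.12 to 0.68 and 2.11 to 2.63 TPM. Synm was at 0.40 to 0.58 and 2.01 to 2.28 TPM and Adora2a at only 0.04 to 0.06 and 0.21 to 0.39 TPM. Among the CREB targets on the list, Nr4a2 (-2.78) and Ppargc1a (-2.75) were lower and Sik1 was higher (1.10), while Per1 (0.35), Dusp1 (0.54), Fos (-0.05) and Nr4a1 (-0.17) were not called. Sik1 and the uncalled genes lie outside the rule for named genes and were chosen after their values were seen. Also lower were the PKA-binding proteins Lrba (-1.69), Rab32 (-1.36) and Wasf1 (-1.32) and the cAMP-binding membrane protein Popdc2 (-1.48). Popdc2 was low in both groups, at 0.28 to 0.50 TPM in polyclonal cells and 0.14 to 0.26 TPM in WT5. Rapgef3 (-1.295) and Nbea (-1.271) were called lower too. They lie outside the rule for named genes and were added after their values were seen. Among the subclones limma called 0 of 40 by the z-score rule (0 at an unadjusted p under 0.05 with the size asked for, 20 without it, and 0 by the unequal-variance test) and 5 by the log2 rule, against 0.613% and 5.46% of all genes. These were the early response genes Fos (range of means 2.24), Nr4a1 (1.56) and Dusp1 (1.42), and Adora2b (1.68) and Gnai1 (1.39). Gnai1 was highest in subclones 4 and 5, at 41.3 to 48.4 and 36.3 to 44.5 TPM, and at 15.8 to 27.7 TPM in subclones 1 to 3.

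Exons of Adcy3, Adcy6, Akap7, Akap9, Pde5a, Pde7a and Pde8b overlap a gene on the other strand, and strand use in the counting is not given in the sources used here, so reads of such pairs may not have been told apart. TPM keeps no read depth, so no counting error can be given, and values under 1 TPM rest on an unknown number of reads. These include Adcy3, Adcy7, Akap17b and most of Pde8b, and Adora2a and Popdc2 in WT5 and polyclonal cells. They also include Avpr2 in WT5, and Gnai1, Adcy1 and Pde8a in polyclonal cells. The sizes of these wide differences thus rest on low values, and the smallest value above 0 is 0.01 TPM.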

How the data were processed

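Total RNA of 28 mIMCD-3 libraries was sequenced. As deposited by the authors, values are TPM per gene, made per the submitters' processing notes and the methods with STAR 2.7.3a on GRCm38 with the Ensembl release 81 annotation and RSEM 1.3.1. Adapter-containing and low-quality reads were discarded before alignment. The 2-decimal values have an unknown depth, and count tests were not used. The table of polyclonal WT and WT5 and that of the subclones were joined by gene identifier. Genes above 0 in every library of a fit were tested on log2(TPM), without a pseudocount, by limma 3.58.1 in R 4.3.3 (two-sided; Benjamini-Hochberg over all genes tested), each fit holding just the groups it compares. The code was tested on simulated data. Values per library are given for genes past the log2 rule in WT5 against polyclonal or among the subclones, for all PKA subunits and for the cyclase, phosphodiesterase and AKAP with the highest mean TPM; genes of the pathway list are named where they pass, up to 12. Members and lists were chosen with earlier results of these data known. Alternatives were an unequal-variance test, as in the study's methods, pseudocounts, filters, scalings, a replicate block and left-out libraries. Gene overlaps came from GENCODE release M21.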

Additional observations from a re-analysis of the deposited data

Results flagged for a closer look

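Among 140 groups of 4 libraries of the 20 named genes, 13 held a library far from the other 3 by Dixon's criterion, which chance gives in about 1 in 20 groups. Subclone 5 replicate 1, which stood apart over all genes, was low for Akap2 (17.7 TPM against 22.7 to 23.4), Prkacb (50.3 against 66.0 to 68.2) and Prkar2a (25.8 against 41.8 to 43.4), and subclone 3 replicate 2 for Pde4d (2.17 against 2.85 to 2.99). Subclone 2 replicate 4 was high for Adcy3 (0.29 TPM against 0.17 to 0.19) and Prkar1b (1.88 against 0.36 to 0.61), subclone 2 replicate 1 for Adcy9 (4.94 against 3.91 to 3.98), subclone 3 replicate 3 for Prkar1b (2.12 against 0.19 to 0.45) and subclone 4 replicate 4 for Pde4a (4.36 against 2.88 to 3.08). Among polyclonal libraries, replicate 3 was high for Pde4c (1.40 TPM against 0.73 to 0.80), replicate 1 was high for Prkar2b (72.6 against 60.2 to 62.2), and replicate 2 was low for Prkar1a (260.4 against 265.8 to 266.7) and Prkar2a (33.2 against 37.4 to 38.2).

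The difference from WT5 varied between subclones, by limma's F-test among subclones, for Adcy7 (2.43 on the log2 scale between subclones 3 and 5, adjusted p = 9.96e-10), Akap17b (2.09 between subclones 5 and 3, adjusted p = 1.59e-04) and Adcy3 (1.22 between subclones 4 and 5, adjusted p = 2.52e-03).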

How the results depend on the processing

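By the z-score rule, of 2709 values of the 20 named genes under alternatives 2611 kept their side of the threshold, 97 newly passed and 1 no longer passed: Pde4c in WT5 against polyclonal, at 0.996 when a pseudocount of 0.1 let in every gene detected in any library. By the log2 rule, of 2329 such values 2257 kept their side without a reversal, 61 no longer passed, 5 newly passed and 6 reversed. Signs changed in 51 and 60 of these values, none of them a called one. The 6 reversals were in WT5 against polyclonal: with genes detected in any library, Prkacb became 0.0286, Prkaca 0.75, Prkar1a 0.63, Pde6d 0.70 and Prkar2a 0.75, and without centring Pde6d became 0.0707. The 12 log2 calls in WT5 against polyclonal became 9 under the unequal-variance test (without Adcy3, Pde4d and Pde8b), 11 and 8 with pseudocounts of 0.1 and 1 (the latter without Adcy3, Akap17b, Pde4d and Pde8b), 9 with a mean TPM of at least 1, 18 with genes detected in any library and 12 without centring, Pde4b in place of Adcy3. Of the 33 genes, the 3 called by z-score in WT5 against polyclonal became 6 with a mean TPM of at least 1, 12 on the log2 scale with or without centring, and 23 without a size requirement; pathway genes went from 2 to 5, 15 (16 without centring) and 32. Among the subclones the 0 called became 3 on either log2 scale and 9 without a size requirement, and pathway genes 1 under the filter on mean TPM of at least 1, 5 on either log2 scale and 11. For subclones 1 to 5 against WT5 the 0 called became 2, 0, 2, 3 and 2 with centring, 2, 0, 1, 2 and 2 without it, and 10, 11, 7, 14 and 7 without a size requirement. The log2 rule's 3 calls among the subclones became 0 with a pseudocount of 1 or a mean TPM of at least 1, and 1 under the unequal-variance test. Its 2 calls in subclone 1 became 1 under that test, with pseudocounts of 0.1 or 1, with a mean TPM of at least 1, with genes above 0 in any library and with the replicate block. In subclone 3, 2 became 1 with a mean TPM of at least 1, with genes above 0 in any library and without centring, and 0 under the unequal-variance test, with a pseudocount of 1 and with the replicate block. In subclone 4, 3 became 1 with a pseudocount of 1 or a mean TPM of at least 1. In subclone 5, 2 became 1 under the unequal-variance test and the replicate block, and 0 with a pseudocount of 1 or a mean TPM of at least 1, which leaves out the genes called. The other causes were not tested. Leaving out each library gave 3 to 3 z-score calls in WT5 against polyclonal, 0 to 1 among the subclones and 0 to 0 in each subclone against WT5, 10 to 12 and 2 to 4 by the log2 rule, 2 to 2, 0 to 1, 1 to 2, 2 to 3 and 1 to 2 for subclones 1 to 5, and 2 to 2 and 0 to 0 for pathway genes. Without the pair of libraries that stood apart, an alternative chosen after seeing the data as were those of the log2 rule, the 3 calls among subclones were the same genes.

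Replicate numbers did not pair libraries: same-numbered libraries correlated at -0.0114 to 0.0135 in WT5 and polyclonal cells and at -0.295 to 0.132 among subclones, and 1 of 8 and 3 of 20 libraries correlated best with their own number. With the number as a block, z-score calls stayed at 3 in WT5 against polyclonal, with 2 pathway genes, and at 0 elsewhere; log2 calls were 10 in WT5 against polyclonal, 3 among the subclones, and 1, 0, 0, 2 and 1 in subclones 1 to 5.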
